A study of Mus musculus and Homo sapiens with 41 samples.

Results

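Interferon-stimulated genes are the genes that a cell switches on after type I interferon binds its receptor. They were followed here as 42 mouse genes chosen by name, of 13238 genes listed for 416b cells and 53756 rows listed for granulocyte-monocyte progenitors (GMPs). Of the 42, 38 were listed for 416b cells and all 42 for GMPs. The list was put together with earlier results of both experiments in view, so the values below describe these genes and no test was made over the list.

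The RNA came from gain and loss of PLZF, the BTB zinc finger transcription factor encoded by Zbtb16. In the gain experiment, 416b cells, a Cd34+ mouse myeloid line, were transduced with lentivirus carrying either PLZF-Flag or the Empty vector, and the GFP-positive cells were sorted, with 1 library for each condition. In the loss experiment, GMPs (negative for lineage markers and Sca-1, positive for C-kit, Cd34 and FcγR) were sorted from lethally irradiated Cd45-1 hosts that had been reconstituted with bone marrow of WT or Zbtb16lu/lu mice, both on C57BL/6. The luxoid allele is carried in the germ line, so it is present in every donor-derived cell and is not restricted to GMPs. Irradiation and transplantation were common to both genotypes, and lentiviral transduction and sorting to both 416b conditions. The table holds 2 GMP libraries per genotype, while the labels list 1 sample per genotype. These are fewer libraries than the independent RNA extractions that the study's methods describe for GMPs. The labels do not say whether the libraries came from separate animals, so p-values measure only the spread between these libraries.

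In the standard pathway, type I interferon binds Ifnar1 and Ifnar2, the kinases Jak1 and Tyk2 phosphorylate STAT proteins such as Stat2, and these join Irf9 in the complex ISGF3. ISGF3 binds the interferon-stimulated response element, a pair of GAAA repeats set apart by any 2 bases, in the promoters of its targets. The targets include sensors of foreign RNA, the 2′-5′ oligoadenylate synthetases that activate RNase L, the ISG15 conjugation enzymes, and Irf7, a transcription factor that raises interferon production further. Many of these genes are also transcribed at a low basal level without infection, and hematopoietic stem and progenitor cells are known for such basal expression.

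The response element was looked for in RefSeq promoter windows of GRCm38.p6, the assembly that mm10 names, from 250 bases before to 50 bases after each start site. Windows were found for 33 of the 42 genes. The motif GAAANNGAAA, searched on both strands, was in 14 of these 33 (42.4%), against 3.99% of 27025 genes with a window. These 14 were Bst2, Ddx58, Ddx60, Eif2ak2, Ifih1, Ifit1, Ifit3, Ifitm3, Isg15, Oas1a, Oas3, Rsad2, Stat2 and Trim30a. With a C required after the second repeat (GAAANNGAAAC), 12 of 33 (36.4%) held it, against 0.944% of all genes. The gamma-activated site TTCNNNGAA, a motif bound by STAT dimers, was in 9 of 33 (27.3%) against 9.55%. The windows of Oas2, Dhx58, Mx1, Mx2, Rtp4, Usp18, Zbp1, Parp9 and Parp14 were not analysed here. A match describes the letters in a window and does not show that a factor binds there.

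The following 30-base stretches, read 5′ to 3′ on the strand of the gene, show how the element recurs in genes of different roles, with the motif in capitals. The motif lies on the opposite strand in Ifit1, Rsad2 and Stat2 and so appears as its reverse complement there. The repeats of Isg15 and Oas1a overlap further copies of the motif, while the copies of Ifit1 are separate.
Isg15, chr4:156200877-156200906: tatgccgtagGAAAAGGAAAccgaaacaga
Isg15, chr4:156200865-156200894: aaaggaaaccGAAACAGAAAatagctctgg
Oas1a, chr5:120907526-120907555: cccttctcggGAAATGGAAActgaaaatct
Oas3, chr5:120777715-120777744: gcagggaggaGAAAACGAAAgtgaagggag
Ifit1, chr19:34640775-34640804: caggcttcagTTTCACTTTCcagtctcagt
Ifit1, chr19:34640794-34640823: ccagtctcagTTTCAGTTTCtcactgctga
Rsad2, chr12:26456553-26456582: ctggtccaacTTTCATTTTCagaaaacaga
Stat2, chr10:128270266-128270295: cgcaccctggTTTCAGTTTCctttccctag

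**Figure D1:**
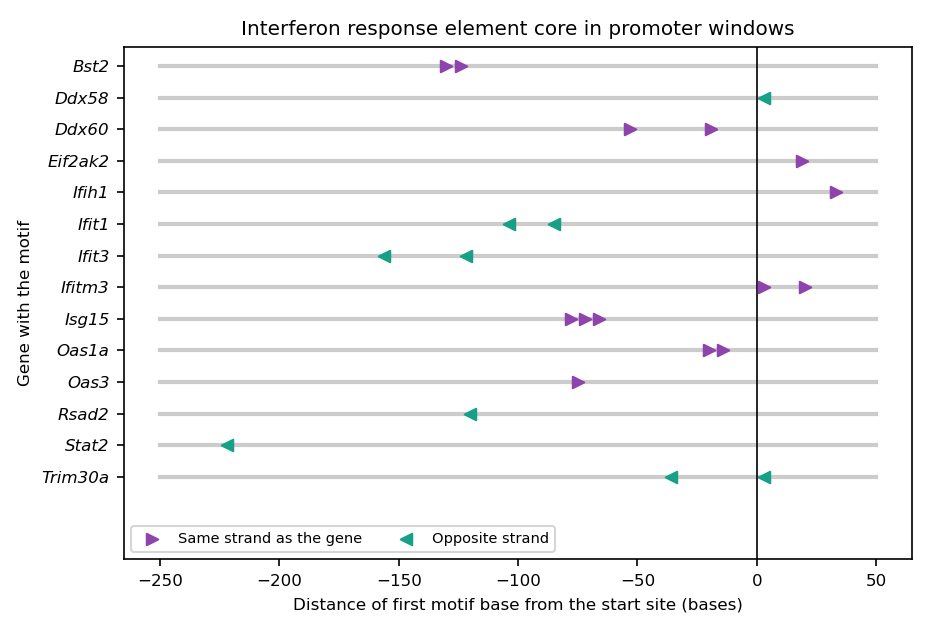
Position of each response element core in the promoter windows of the 14 genes that hold it, as the distance in bases from the start site (0) to the first base of the motif. Triangles give the strand of the motif. Of the genes shown, Isg15 has 3 overlapping copies between 78 and 66 bases before the start site, and Stat2 has the most distant copy, 222 bases before it.

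PLZF itself was measured first, as a check of the labels. Zbtb16 had 632 reads with the Empty vector and 1538 with PLZF-Flag in 416b cells, a log2 ratio of 2.73 after scaling (95% interval 2.60 to 2.87). In GMPs its normalized counts were 705 and 828 in WT against 269 and 369 in Zbtb16lu/lu. Its log2 difference was -1.28 (SE 0.20, limma adjusted p = 0.299), the smallest adjusted p of all genes tested, which 70 genes shared. Normalized counts are reads per gene divided by a size factor of the library. The 416b libraries held 54529689 and 19995819 reads on the listed genes (Empty vector and PLZF-Flag), and the GMP libraries 37562999 to 40170636 reads. WT library 2 stood apart from the other GMP libraries, with Pearson correlations of log2 values across genes of 0.972 to 0.973 against 0.986 to 0.990 among the others, and GMP results are therefore also given without it. Both cell types had their defining markers: the 8 GMP markers (Mpo, Elane, Prtn3, Ctsg and others) added up to 738858 and 729140 in WT against 847791 and 837280 normalized counts in Zbtb16lu/lu, and the 6 progenitor markers of 416b cells (Cd34, Kit, Spi1 and others) to 42868 and 42131.

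In 416b cells, interferon-stimulated genes were lower with PLZF-Flag than with the Empty vector in most cases, by a small amount. Of the 37 genes that averaged 10 normalized counts or more, 33 were lower (50.0% of all 11836 genes were), with a median log2 ratio of -0.29 against -0.00014 over all genes. The range ran from -2.24 for Oas2 to 0.59 for Isg20. The 95% exact binomial interval, which covers counting error only, lay below 0 for 24 of 37 genes, against 15.9% of all genes, and above 0 for 1, Isg20, against 16.1%. A ratio of 1.5-fold or more was reached downwards by 7 genes, against 3.11% of all genes, and upwards by Isg20, against 1.69%. Of the 7, 6 had a mean under 200 normalized counts, where 14.1% of all genes were lower by that much, and 1 had 200 to under 1000, where 0.597% were. Among those 6, Ddx60 reached the filter on mean level only through the Empty vector. Each condition had a single library, so the conditions could not be tested against each other, and every ratio compares these 2 libraries. A smaller share of cells expressing a gene and less RNA in each cell cannot be told apart in RNA from bulk cells.

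**Figure D2:**
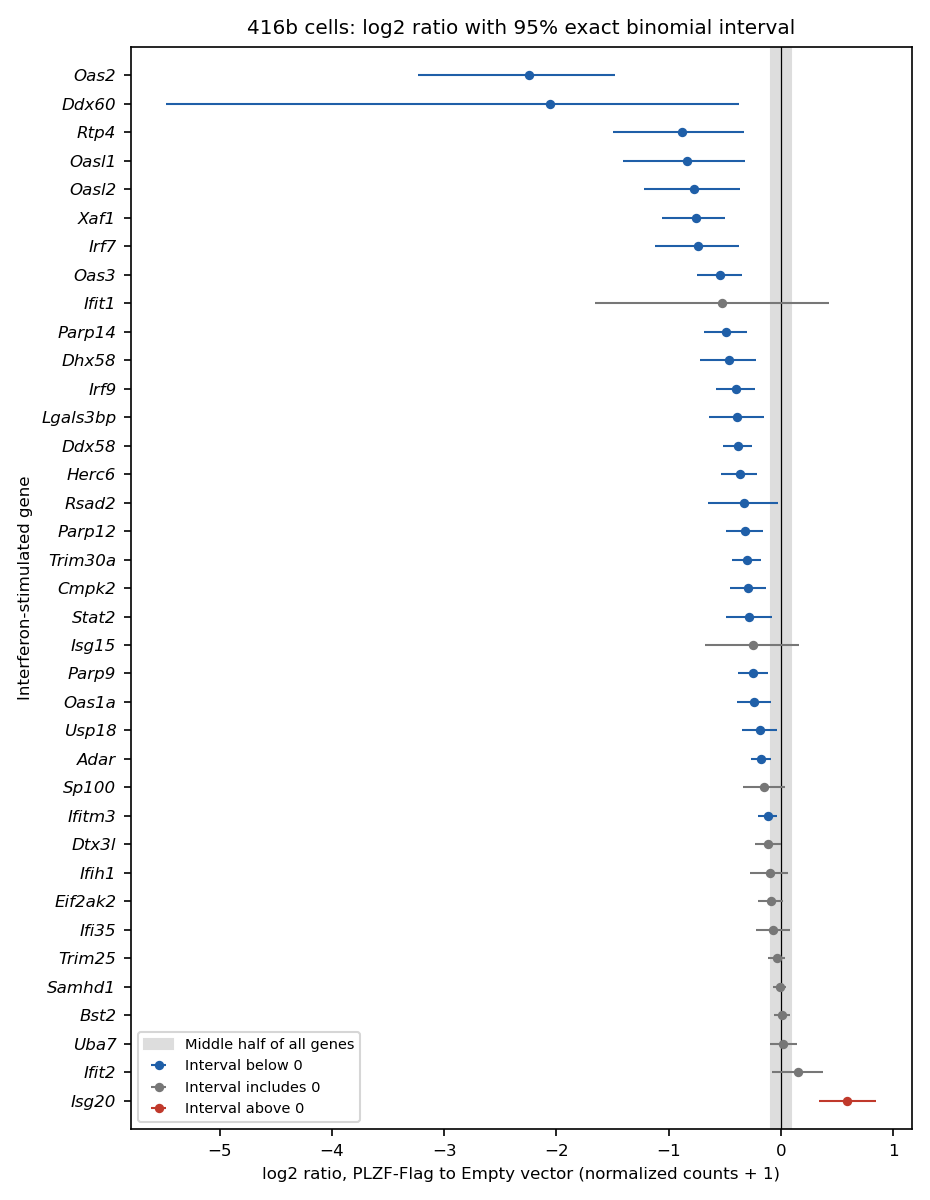
Log2 ratio (PLZF-Flag over Empty vector) of the 37 genes that averaged 10 normalized counts or more, with 95% exact binomial intervals from the reads. The gray band holds the middle 50% of all 11836 genes. Oas2 and Ddx60 lie farthest to the left, and Isg20 is the gene with an interval above 0.

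The intervals of all 5 oligoadenylate synthetases lay below 0, against 15.9% of all genes. Oas2 (chr5:120730333-120749853) had 174 reads with the Empty vector and 13 with PLZF-Flag. After scaling this was 105 and 21.5 normalized counts, 21.1% of the Empty vector level, and a log2 ratio of -2.24 (interval -3.23 to -1.48). Oasl1 had 177 and 36 reads (-0.84, interval -1.41 to -0.33), and Oasl2 had 268 and 57 (-0.78, interval -1.22 to -0.37). Both encode synthetase-like proteins. Oas3 had 1031 and 259 reads (-0.54, interval -0.75 to -0.35). Oas1a, the most abundant of the family in these cells, had 1546 and 479 reads and a log2 ratio of -0.24 (interval -0.39 to -0.09). The family thus spanned a log2 ratio from -2.24 to -0.24, and its 2 lowest ratios were in genes with fewer than 200 reads in Empty vector. Oas1a belongs to a group of near-identical Oas1 genes, so the reads assigned to it are uncertain, as are those of Ifit3 and Trim30a, which also have close copies.

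All 4 listed sensors of foreign nucleic acid were lower in PLZF-Flag. Ddx60, a helicase that assists RNA sensing, had 28 and 2 reads, a log2 ratio of -2.06 with an interval from -5.47 to -0.37. It reached the filter on mean level only through the Empty vector, with 16.9 normalized counts there and 3.30 with PLZF-Flag. Dhx58, which encodes the regulator LGP2, had 642 and 170 reads (-0.47, interval -0.72 to -0.22). Ddx58, which encodes the receptor RIG-I, had 2320 and 650 reads (-0.39, interval -0.51 to -0.26). Ifih1, which encodes the receptor MDA5, had 1135 and 387 reads and a log2 ratio of -0.10, and its interval from -0.27 to 0.06 included 0. Zbp1 was not listed in the 416b table, which holds only genes with reads in both libraries.

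The 3 transcription factors among the genes were each lower. Irf7 (chr7:141262706-141266481) had 333 reads with the Empty vector and 73 with PLZF-Flag, or 202 and 120 normalized counts, 59.7% of the Empty vector level (log2 ratio -0.74, interval -1.13 to -0.37). Irf9 had 1241 and 344 reads (751 and 569 normalized counts, -0.40, interval -0.58 to -0.23). Stat2 had 828 and 249 reads (501 and 411 normalized counts, -0.28, interval -0.49 to -0.08). Irf9 and Stat2, which act together in ISGF3, were thus lower by a similar amount, with intervals that overlap. Exons of Irf7 overlap those of Phrf1 on the opposite strand and exons of Irf9 those of Rnf31 on its own strand, and the counting is not stated to use strand, so reads shared with these neighbors cannot be set apart.

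Among effectors, Rtp4, which encodes a receptor transporter protein, had 157 and 31 reads (-0.88, interval -1.50 to -0.33), and Xaf1, an inhibitor of the anti-apoptotic protein XIAP, had 606 and 130 (-0.76, interval -1.06 to -0.50). In the ISG15 system, Herc6, the mouse ISG15 ligase, had a log2 ratio of -0.37 (interval -0.53 to -0.21) and the ISG15 protease Usp18 one of -0.19 (interval -0.35 to -0.04). Isg15 itself had 208 and 64 reads and a log2 ratio of -0.25, with an interval from -0.68 to 0.16. The activating enzyme Uba7 was at 0.02 (interval -0.10 to 0.14) and Trim25 at -0.04 (interval -0.11 to 0.04), so no change in them was detectable at this depth. The 4 genes of ADP-ribosylation ran from -0.49 for Parp14 to -0.11 for Dtx3l, and the interval of Dtx3l was the one of the 4 that included 0. Parp9 and Dtx3l lie on opposite strands and overlap in their exons. Exons of Uba7 overlap those of Gm20661 on its own strand, and exons of Adar those of Chrnb2 on the opposite strand.

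The genes with the highest level per kilobase included some near level and some that were lower. Per kilobase of exons, Ifitm3 (a membrane protein that blocks viral entry) had 4231 normalized counts with the Empty vector and 3895 with PLZF-Flag, and Bst2 (tetherin, which retains budding virus) 4129 and 4159. Samhd1, a nucleotide hydrolase, had 615 and 610, Trim25 572 and 557, and Oas1a 496 and 420. Their log2 ratios were -0.12 for Ifitm3 (interval -0.20 to -0.04), 0.01 for Bst2 (interval -0.06 to 0.08), -0.01 for Samhd1 (interval -0.07 to 0.05), -0.04 for Trim25 (interval -0.11 to 0.04) and -0.24 for Oas1a. Other genes of more than 1000 normalized counts with the Empty vector had intervals below 0, among them Ddx58 (-0.39), Trim30a (-0.31), Parp9 (-0.25) and Adar (-0.18). Among genes with a mean under 200 normalized counts, all 8 were lower with a median of -0.81, while 54.2% of all genes at that level were lower with a median of -0.04. From 200 to under 1000 normalized counts 16 of 18 were lower with a median of -0.31 (50.5% of all genes and a median of -0.0023), and at 1000 or more 9 of 11 with a median of -0.11 (48.2% and 0.0048). The table lists only genes with reads in both libraries and PLZF-Flag was sequenced less deeply, so a gene absent in PLZF-Flag would not appear.

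The genes that were not lower were few. Isg20, an exonuclease that degrades RNA, had 353 reads with the Empty vector and 195 with PLZF-Flag, which after scaling was 214 and 322 normalized counts, a log2 ratio of 0.59 (interval 0.33 to 0.85). With a pseudocount of 10 it was 0.57, below 1.5-fold. Ifit2, an RNA-binding tetratricopeptide protein, had 552 and 224 reads (0.15, interval -0.08 to 0.37). Uba7 and Bst2 were the other genes above 0. Mx1 had 4 reads in each library, too few for a comparison, and Ifit3, Mx2, Zbp1 and Ifi44 were not listed. Apart from those named, Rsad2, Cmpk2, Parp9, Parp12, Lgals3bp, Adar and Trim30a had intervals below 0, with log2 ratios from -0.39 to -0.18, and Ifit1, Eif2ak2, Sp100 and Ifi35 were below 0 with intervals that included 0.

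The rest of the pathway was followed with lists of genes by role. Of 21 interferon ligands, 1 was listed in 416b cells, Ifnz, with 42 and 9 reads (log2 ratio -0.74, with an interval that included 0). All 5 listed receptor subunits were slightly below 0, with intervals that included 0, and the 3 largest were Ifngr2 (-0.09), Ifngr1 (-0.09) and Ifnar1 (-0.06). Among the JAK-STAT transducers, Stat2, Irf9 and Jak1 (-0.07) had intervals below 0 and Jak2 had one above 0 (0.11). Among 7 interferon regulatory factors with a mean of at least 10, Irf7 and Irf9 had intervals below 0, and Irf5 (0.19) and Irf2 (0.09) above 0. The median of the 12 negative regulators was 0.01, and their largest ratios were those of Socs1 (0.64, interval -0.10 to 1.39), Ptpn6 (0.23, interval 0.18 to 0.28) and Usp18. Of 15 genes of antigen processing, 9 had intervals below 0 (15.9% of all genes) and 1 above 0 (16.1%). Their largest ratios were B2m (-0.23), H2-T23 (-0.22) and Tapbp (-0.22), and none reached 1.5-fold.

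Among 10 sensing adaptors and kinases with a mean of at least 10, Tmem173, which encodes STING, was at -0.28 (interval -0.43 to -0.13) and was the gene with an interval below 0, while Ikbke (0.32) and Unc93b1 (-0.13) had intervals that included 0. Of 15 genes responsive to interferon gamma, 5 had intervals below 0 and 0 above 0 (15.9% and 16.1% of all genes), and the largest ratios, those of Ciita (-0.89), Socs1 (0.64) and Gbp9 (0.63), rested on 50 or fewer reads in Empty vector and had intervals that included 0. Among 47 further interferon-stimulated genes outside the list, 16 had intervals below 0 and 6 above 0 (15.9% and 16.1% of all genes), with a median of -0.04, and 6 were lower by at least 1.5-fold (3.11% of all genes). The largest of these were Ms4a6d (73 and 11 reads, -1.24), Ifi27l2a (252 and 50, -0.88) and Oas1b (94 and 20, -0.77). The median of this wider set was nearer 0 than that of the 37 genes, a difference that was not tested.

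Markers of progenitors and of other cells were compared in the same 416b libraries. Of the 6 progenitor markers, Ptprc (-0.34, interval -0.40 to -0.28), Cd34 (-0.33, interval -0.37 to -0.28) and Runx1 (-0.18, interval -0.28 to -0.08) were lower, and Gata2 (0.18), Kit (0.18) and Spi1 (0.10) had intervals above 0. Of the 6 GMP markers with a mean of at least 10, which share Cd34 and Kit with that list, 5 were lower with a median of -0.16, and the intervals of Ctsg (-0.47, interval -0.57 to -0.37), Cebpa (-0.21, interval -0.30 to -0.12) and Cd34 lay below 0. Of 7 plasmacytoid dendritic cell markers 2 were listed, Tcf4 (-0.02) and Cox6a2 (-0.02), and Siglech was not among them. The 6 listed monocyte markers added up to 2842 and 2805 normalized counts, and of the 4 with a mean of at least 10, Ccr2 was lower (238 and 49 reads, -0.82, interval -1.31 to -0.38). The 2 listed mature neutrophil markers added up to 8118 and 8391, the listed markers of T and NK cells to 173 and 155, of B cells to 3.03 and 4.96 and of erythroid cells to 2404 and 2900. In the erythroid list the intervals of Gata1 (25 and 26 reads, 1.45, interval 0.66 to 2.36) and Hbb-bs (0.27, interval 0.18 to 0.35) lay above 0. The part of these differences in the lower interferon-stimulated genes was not tested.

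In GMPs no gene passed the test, and most of the genes had a higher mean in Zbtb16lu/lu than in WT, though 19 of the 40 tested changed sign under at least 1 alternative. Of the 42, 40 had at least 10 normalized counts in at least 2 libraries and were tested, and 0 of them, as 0 of all 20531 genes tested (0.00%), had a limma adjusted p under the threshold of 0.08 (for these genes 0.422 to 0.991). edgeR on reads recovered from the values also called 0 genes, and DESeq2 called 220 of all genes (161 higher, 0.784%, and 59 lower, 0.287%) and 0 of the 40. At an unadjusted limma p under 0.05 there were 2028 of all genes, and among the 40 there were 3 higher in Zbtb16lu/lu (7.50%, against 5.50% of all genes) and 0 lower (against 4.37%). The mean log2 value was higher in Zbtb16lu/lu for 32 of 40 genes, against 49.1% of all genes, and the median log2 difference was 0.16 against -0.0063. Without WT library 1 it was higher for 25 and lower for 15 of the 40 genes (48.6% of all genes higher), and without WT library 2 higher for 33 and lower for 7 (49.3%). In 16 of the 40 cases both Zbtb16lu/lu values exceeded both WT values, against 21.7% of all genes, and for 1, Parp9, below, against 22.1%. With 2 libraries against 2, the smallest p of an exact permutation test of a single value is 0.333.

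**Figure D3:**
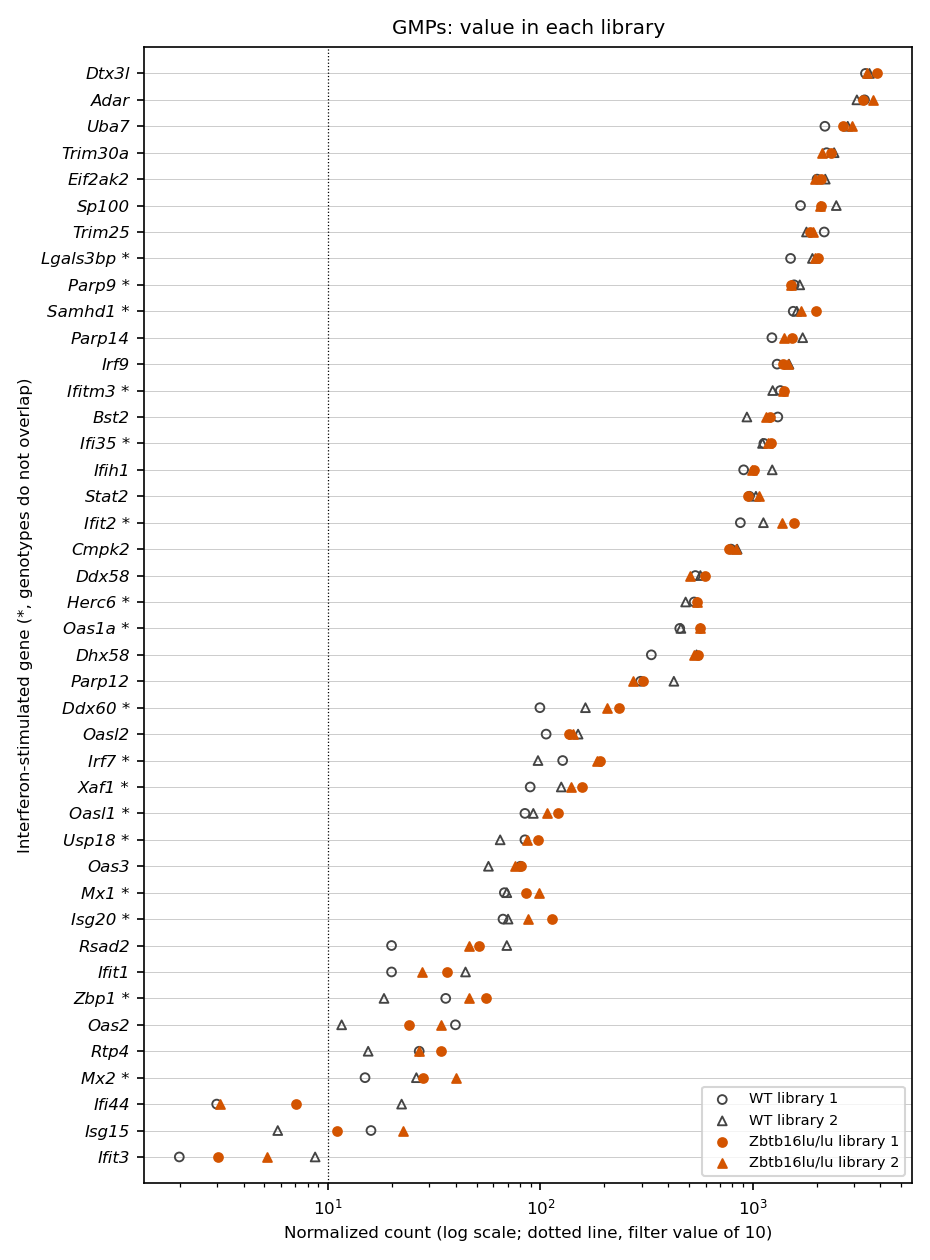
Normalized counts of the 42 genes in each of the 4 GMP libraries, on a log axis, ordered by the WT mean. Open symbols are WT and filled symbols Zbtb16lu/lu, and an asterisk marks the 17 genes whose genotypes do not overlap. The gap between genotypes is widest for genes of low level such as Zbp1, Irf7 and Ddx60, and the genes above 1000 normalized counts lie close together.

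The genes with an unadjusted p under 0.05 were Ifit2, Irf7 and Ddx60. Ifit2 (chr19:34550694-34576419) had 875 and 1124 normalized counts in WT against 1566 and 1369 in Zbtb16lu/lu. Both Zbtb16lu/lu values exceeded both WT values, with a log2 difference of 0.56 (SE 0.16, unadjusted p = 0.00754, adjusted p = 0.422 in limma). Irf7 had 127 and 97.4 in WT against 192 and 184 in Zbtb16lu/lu. The Irf7 genotypes did not overlap either, and the log2 difference was 0.75 (SE 0.26, adjusted p = 0.443 in limma). Ddx60 had 99.4 and 163 in WT against 234 and 206 in Zbtb16lu/lu. Its log2 difference of 0.78 (SE 0.29, adjusted p = 0.468 in limma) rested in part on WT library 1, without which it was 0.43.

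Other large differences were in genes of low level. Zbp1 (chr2:173206612-173218923), a sensor of left-handed nucleic acid, had 35.8 and 18.3 in WT against 55.2 and 46.3 in Zbtb16lu/lu. Its log2 difference of 0.95 (SE 0.46) was the widest among the 40 genes with all 4 libraries, and its genotypes did not overlap. It was 1.42 without WT library 1 and 0.49 without WT library 2, where those of Rsad2 (1.25) and Ddx60 (1.13) were wider. Mx2 had 14.9 and 26.0 in WT against 28.1 and 40.1 in Zbtb16lu/lu (0.74, SE 0.51), a difference that was 0.35 without WT library 1 and 1.12 without WT library 2. Mx1, its relative among the Mx GTPases, had 67.6 and 69.4 in WT against 85.3 and 98.7 in Zbtb16lu/lu (0.42, SE 0.30). Isg20 had 66.6 and 70.4 in WT against 113 and 87.4 in Zbtb16lu/lu (0.53, SE 0.31). The genotypes of these 3 genes did not overlap. Isg15, in contrast, had 15.9 and 5.79 in WT against 11.04 and 22.6 in Zbtb16lu/lu, and Rtp4 26.8 and 15.4 in WT against 34.1 and 26.7 in Zbtb16lu/lu. For both the groups overlapped, so their log2 differences of 0.65 and 0.54 were within the spread between libraries. Those of Isg15 and Rtp4 were 1.31 and 0.93 without WT library 1, and -0.0041 and 0.16 without WT library 2.

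The other members of the list that encode parts of ISGF3 differed little between genotypes. Irf9 had 1304 and 1482 normalized counts in WT against 1390 and 1464 in Zbtb16lu/lu (0.04, SE 0.13). Stat2 had 965 and 1036 in WT against 954 and 1075 in Zbtb16lu/lu (0.02, SE 0.14). Both differences were smaller than their standard errors.

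By role, the oligoadenylate synthetases were all above 0, with a median log2 difference of 0.31, and 2 of the 5, Oas1a and Oasl1, did not overlap between genotypes (21.7% of all genes did so in this direction). The signs of Oas2, Oas3 and Oasl2 changed when a WT library was left out. Oas1a had 453 and 459 normalized counts in WT against 566 and 565 in Zbtb16lu/lu, so its libraries were close within each genotype (0.31, SE 0.16). Oas2, whose ratio was the lowest in 416b cells, had 39.8 and 11.6 in WT against 24.1 and 33.9 in Zbtb16lu/lu, and the groups overlapped. Of the sensors, Ddx58 (-0.01) and Ifih1 (-0.08) were near 0, and Dhx58 (0.35) had 333 and 544 in WT against 552 and 530 in Zbtb16lu/lu. The 4 genes of ADP-ribosylation had a median of -0.04. Parp12 (-0.30), the lowest of the 40 genes with all 4 libraries, had overlapping groups. Without WT library 2, Parp12 was at -0.04 and Oas2 (-0.46) was the lowest. The kinase Eif2ak2 (PKR) was at -0.05 and the RNA editor Adar at 0.12. The 2 genes Ifit3 and Ifi44 were below the filter, with 1.99 to 8.68 and 2.98 to 22.2 normalized counts.

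The highest levels per kilobase of exons in GMPs were those of Ifitm3 (mean 1912 in WT and 2061 in Zbtb16lu/lu), Bst2 (1247 and 1310), Ifi35 (649 and 694), Lgals3bp (601 and 704) and Dtx3l (607 and 638). Lgals3bp, a secreted galectin-binding protein, had 1508 and 1913 normalized counts in WT against 2032 and 1975 in Zbtb16lu/lu, without overlap (0.24, SE 0.15). Ifitm3 had 1350 and 1242 in WT against 1412 and 1383 in Zbtb16lu/lu, and Ifi35 1130 and 1113 in WT against 1215 and 1181 in Zbtb16lu/lu. Bst2 (1314 and 939 in WT, 1209 and 1157 in Zbtb16lu/lu) and Dtx3l (3400 and 3550 in WT, 3858 and 3444 in Zbtb16lu/lu) overlapped. Genes with a mean under 200 normalized counts over the 4 libraries were above 0 in 16 of 16 cases with a median of 0.45, against 56% of all genes at that level and a median of 0.07. At 200 or more, 16 of 24 were above 0 with a median of 0.05, against 44.4% and -0.03. The median difference was thus larger at low level, while 16 genes were above 0 at either level.

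The count of genes past the threshold depended on the WT libraries. Without WT library 2, which stood apart, 8 of the 40 genes had a limma adjusted p under 0.08, all higher in Zbtb16lu/lu (against 6.98% of all genes higher and 6.40% lower): Rsad2 (1.25), Ddx60 (1.13), Ifit2 (0.74), Xaf1 (0.72), Dhx58 (0.70), Lgals3bp (0.41), Uba7 (0.36) and Sp100 (0.31). Without WT library 1, 4 genes were higher, Zbp1 (1.42), Irf7 (0.94), Ifit2 (0.38) and Bst2 (0.33), against 11.8% of all genes, and Parp12 was lower (-0.56), against 10.9%. Ifit2 was called in both of these fits. Rsad2 (-0.50), Dhx58 (-0.0075) and Sp100 (-0.25) had the opposite sign without WT library 1, where Ddx60 (0.43), Xaf1 (0.24), Lgals3bp (0.07) and Uba7 (0.0012) were nearer 0, and Bst2 (-0.15) without WT library 2. They assume that a lone WT library varies as the Zbtb16lu/lu pair does. Leaving out Zbtb16lu/lu library 1 gave 0 of the 40 genes (0.00% of all genes higher and 0.00487% lower), and leaving out library 2 also gave 0 (0.302% higher and 0.00974% lower). WT library 1 and Zbtb16lu/lu library 2 carry the same number in their column headers, and between them the median was 0.16 with 30 of 40 genes higher. Between the other pair it was 0.11 with 26 higher, and all genes had 49.4% higher in either pair.

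Markers of GMPs and of other cells differed between the GMP libraries too. Of the 8 GMP markers, 7 were above 0 (49.1% of all genes). Mpo (0.19), Elane (0.37) and Prtn3 (0.39) did not overlap between genotypes (21.7% of all genes did so in this direction). All 8 mature neutrophil markers (Ltf, Camp, Ngp and others) were tested, with a median log2 difference of 2.34. Both Zbtb16lu/lu libraries lay above both WT libraries for 7 (21.7% of all genes). An unadjusted limma p under 0.05 was reached by 7, all higher (5.50% of all genes), and DESeq2 called Ltf (adjusted p = 0.0432). Ly6g reached the filter only through the Zbtb16lu/lu libraries, and Mmp9 and Retnlg were under 10 in WT library 2. These counts thus depend in part on the filter. The sum of the 8 markers was 990 and 566 normalized counts in WT against 4031 and 1771 in Zbtb16lu/lu. Monocyte markers added up to 73677 and 87350 in WT against 105130 and 99332 in Zbtb16lu/lu, and 5 of the 7 tested did not overlap and were higher, beside the 21.7% of all genes that did not overlap in this direction. Plasmacytoid dendritic cell markers added up to 1611 and 2193 in WT against 1805 and 1802 in Zbtb16lu/lu, almost entirely through Tcf4 (-0.08). The defining marker Siglech was at 0.964 to 2.98. Ccr9, the farthest from 0 of the 3 tested, had 12.9 and 18.3 in WT against 26.1 and 30.8, without overlap (0.84). Below the filter, Spib (5.97 and 3.86 in WT, 12.04 and 7.20 in Zbtb16lu/lu) and Klk1 did not overlap and were higher. Cox6a2 (0.25), Tcf4, Ly6d and Siglech overlapped. Markers of T and NK cells added up to 11724 and 11211 in WT against 11077 and 11654 in Zbtb16lu/lu, almost entirely through Nkg7. Of the other T and NK markers, Cd3d had 2.98 and 3.86 in WT against 12.04 and 19.5 in Zbtb16lu/lu (1.90). It reached the filter only through the Zbtb16lu/lu libraries. Klrb1c had 1.99 and 0.964 in WT against 9.03 and 13.4. Cd3e, Cd3g and Gzma were at 4.82 or less in every library and overlapped between genotypes. B cell markers added up to 1114 and 1062 in WT against 1282 and 1196, without overlap, almost entirely through Cd79b. Erythroid markers added up to 336 and 1003 in WT against 767 and 424, with overlap. The part of these cells in the differences of the interferon-stimulated genes was not tested.

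Interferon ligands were nearly absent in GMPs. Of 21 ligands, 13 were at 0 in all 4 libraries, Ifnb1 among them, which allows up to 3 reads in each library, and the others summed to at most 15.1 normalized counts in a library. Of 5 tested receptor subunits, Ifngr1 (0.26), Il10rb (0.18) and Ifnar2 (0.12) were the farthest from 0, and these 3 did not overlap and were higher (21.7% of all genes). Of the JAK-STAT transducers, Tyk2 (0.23), Stat3 (-0.16) and Jak1 (-0.08) were the farthest from 0, and Tyk2 was the 1 of 7 that did not overlap, a share below those 21.7%. Among the regulatory factors Irf7, Irf8 and Irf1 were farthest from 0. Irf8, a factor of the monocyte lineage, had 9786 and 9305 normalized counts in WT against 14277 and 13887 in Zbtb16lu/lu (0.56, SE 0.11, adjusted p = 0.299 in limma). Of the 13 sensing genes, 6 were above 0 and 7 below, with a median of -0.09. Without overlap, 5 were higher (21.7% of all genes) and 3 lower (22.1%). Tlr9 (0.92), Tlr3 (0.89) and Unc93b1 (0.64) were the farthest from 0, and Tlr9 and Tlr3 were at 9.64 to 59.6 normalized counts. Unc93b1, which carries endosomal Toll-like receptors to their compartment, had 5792 and 5941 in WT against 9347 and 8892 in Zbtb16lu/lu.

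Of the negative regulators, Socs3 (-1.26), Socs1 (0.97) and Trex1 (0.31) were the farthest from 0, and Socs3 was the 1 of 12 with an unadjusted p under 0.05 in limma, where 4.37% of all genes were lower and 5.50% higher. The genes responsive to interferon gamma had a median of 0.10 with 0 of 18 under that value, and Socs1 (0.97), Gbp6 (0.59) and Ciita (0.46) were the farthest from 0. Antigen processing genes had a median of 0.22, and 6 of 15 had an unadjusted p under 0.05 in limma, all higher (5.50% of all genes were higher at that p), led by Tapbp (0.47), Tap2 (0.45) and Tap1 (0.38). Among 55 further interferon-stimulated genes tested, 34 were above 0 (49.1% of all genes were) with a median of 0.06, and 1, Epsti1 (0.76), had an unadjusted p under 0.05 (5.50% of all genes were higher at that p). Ms4a4c (0.55) and Ube2l6 (0.54) followed. In limma and in edgeR, 0 of the genes in these pathway lists had an adjusted p under 0.08. DESeq2 on recovered reads called Irf8 (adjusted p = 0.00195), Unc93b1 (adjusted p = 0.000288), Tapbp (adjusted p = 0.0367) and Tap2 (adjusted p = 0.0499), all higher in Zbtb16lu/lu, against 0.784% of all genes.

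Set side by side, the experiments gave opposite signs for most of the genes when all 4 GMP libraries were used. Of the 37 genes measured in both, 25 were lower in PLZF-Flag 416b cells and higher in Zbtb16lu/lu GMPs, against 22.4% of 11215 genes measured in both. A further 8 were lower in both (Ddx58, Ifih1, Trim25, Cmpk2, Parp9, Parp12, Eif2ak2 and Trim30a), 4 were higher in both (Ifit2, Isg20, Uba7 and Bst2), and 0 were higher in 416b cells and lower in GMPs. Without WT library 1, 15 of the 40 genes tested in GMPs were lower in Zbtb16lu/lu, and each of these was also lower in 416b cells. Opposite signs then no longer held for most of the 37 genes. Without WT library 2, 7 of the 40 were lower. Ddx60, Irf7, Oasl1 and Xaf1 were lower by at least 1.5-fold in 416b cells and did not overlap between genotypes in GMPs. These were 4 of 37 genes, against 0.927% of the 11215 genes. Ddx60 reached the filter on mean level in 416b cells only through the Empty vector (16.9 normalized counts, against 3.30 with PLZF-Flag). Its place in this count thus depends in part on the filter. For Irf7 the log2 ratio of -0.74 in 416b cells stood beside a log2 difference of 0.75 in GMPs, and for Xaf1 -0.76 stood beside 0.48 (0.24 without WT library 1). For Isg20, 0.59 stood beside 0.53. The experiments share no library, and their values differ in cell type, kit and scale.

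**Figure D4:**
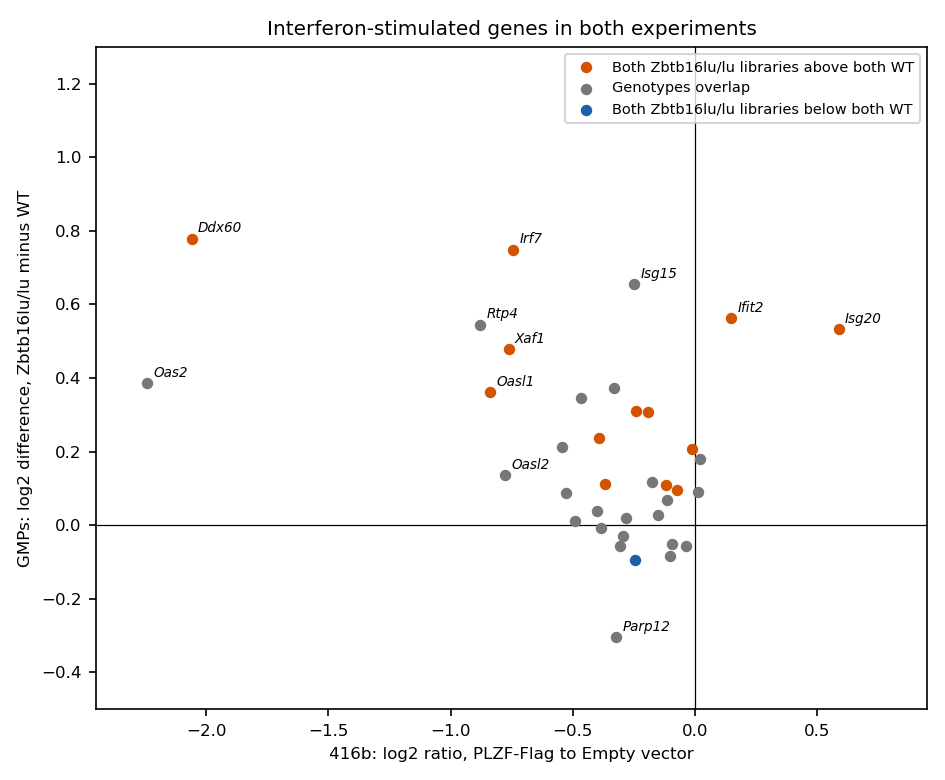
Log2 ratio in 416b cells (PLZF-Flag to Empty vector) against log2 difference in GMPs (Zbtb16lu/lu minus WT) for the 37 genes measured in both. Colors show whether the GMP genotypes overlap. Of the points, 25 lie in the upper left part, Ddx60 and Irf7 among them, and the lower right part is empty. Ddx60 reached the filter on mean level in 416b cells only through the Empty vector.

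Split by promoter, the genes with and without the response element core had similar medians, and the difference was not tested. Those with the response element core had a median log2 ratio of -0.28 in 416b cells (12 of 13 lower) and those without it -0.23 (15 of 18 lower). In GMPs the medians were 0.09 (9 of 13 higher) and 0.13 (15 of 18 higher). The genes whose windows were not analysed had a median of -0.48 in 416b cells (6 of 6 lower) and 0.39 in GMPs (8 of 9 higher). The 42 genes lie on 16 chromosomes. In 6 places 2 or 3 of them are neighbors within 100 kb, 14 genes in all, such as Ifit1, Ifit2 and Ifit3 (chr19:34550694-34650009) or Rsad2 and Cmpk2 (chr12:26442746-26479837). Genes of a cluster may therefore not be independent of each other, which was not tested.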

How the data were processed

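The RNA-seq tables of 416b cells (1 library each for Empty vector and PLZF-Flag) and of GMPs (2 libraries each for WT and Zbtb16lu/lu) were used. Samples of ChIP-seq and ATAC-seq were not used here. GMP libraries were made with a stranded total RNA kit after ribosomal RNA removal, and 416b libraries with a low-input SMART-Seq kit. Mapping by the authors used subread-align and the mm10 genome, and counting used featureCounts (1.5.0 in the submitters' processing notes). The deposited signal values are these counts after division by the DESeq2 size factor of each library, called normalized counts here. Columns of the authors with means per genotype, log2 values, fold changes and p-values, raw and adjusted, are also in the tables and were left aside.

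The 42 genes, the gene lists by role and the tests were chosen with earlier results of these data known. Genes were matched by symbol. Values in every library are given for Irf7, Irf9, Stat2, the 8 genes with the largest absolute difference in each experiment and the 5 with the highest level per kilobase of GENCODE M21 exons, and other genes are given by counts and ranges. For the other lists the 3 largest absolute differences are named. Further genes were named after their values were seen, where a statement turned on them. The values of 1 gene of the pathway lists are not reported here.

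In GMPs, limma-trend was fitted to log2(normalized count + 1), over the 20531 genes that reached 10 in 2 or more libraries. The p-values were adjusted by Benjamini-Hochberg and the threshold was 0.08. Fold changes are on that scale, which understates changes of low genes. A count test had not been planned. The values were whole multiples of the value of 1 read for 100% of genes in each GMP library (tolerance 0.001), so edgeR and DESeq2 were run on the recovered reads as alternatives chosen after seeing the data. In 416b cells reads were recovered likewise (84.8% and 85.5% of values whole within 0.01, the others rounded), and log2 ratios of normalized counts + 1 were given a 95% exact binomial (Clopper-Pearson) interval computed from the reads without the added count. A gene counted as changed at 1.5-fold. Reads are not independent molecules, so intervals and limits cover counting error only.

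Alternatives were other pseudocounts, filters, scalings, variance settings and thresholds, leaving out each library and, for 416b cells, TMM scaling. Splits by level and by promoter motif were added after seeing the data. The limma and edgeR fits were tested on simulated data, and the DESeq2 fit was not. Software versions were DESeq2 1.42.0, edgeR 4.0.16, limma 3.58.1, R 4.3.3, pandas 2.3.3, scipy 1.17.1, numpy 2.4.6 and Python 3.11.15.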

Additional observations from a re-analysis of the deposited data

How the results depend on the processing

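In 416b cells, the sign of all 37 genes stayed the same under pseudocounts of 0.1 and 10, a mean of at least 100, TMM scaling and equal library totals, where each was measured. The number of genes past 1.5-fold was 8, and it was 4 with a mean of at least 100, where fewer genes were counted, and 2 at a fold of 2. With a pseudocount of 10 it was 7, all lower, without Isg20. The stricter response element core left 12 of the 14 genes. In GMPs, 21 of the 40 genes kept their sign under every alternative. The median log2 difference of 0.16 was 0.096 with a mean of at least 100 (29 genes), and 0.14 to 0.16 with each library left out. With each library left out, between 1 and 4662 of all genes passed the threshold, between 0 and 8 of the 40 genes did, and between 0 and 12 had an unadjusted p under 0.05 (12 without WT library 2 and 8 without WT library 1, where 22.8% and 31.4% of all genes had one). DESeq2 on recovered reads called 220 genes in place of 0. The cause of the difference between DESeq2 and the other tools was not tested. No paired analysis was possible because the genotypes share only 1 number in their column headers (WT library 1 and Zbtb16lu/lu library 2), and a block needs at least 2. With 1 library per 416b condition, depth limits genes of few reads, and the intervals of Ddx60, Ifit1, Oas2, Rtp4 and Oasl1 were wider than 1 on the log2 scale.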
